A study of Mus musculus with 31 samples.

Results

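The regions described here are stretches of the mouse autosomes that carried H3K27me3 peaks in primordial germ cells at embryonic stage E10.5 and fell below a fixed peak length at E13.5. The genome was cut into 10-kb bins in mm9, from position 0 of chromosomes 1 to 19. A bin was a member when at least 1 kb of it lay in merged H3K27me3 peaks in 2 or more of the 3 E10.5 lists and under 1 kb in each of the 6 E13.5 lists. Of 247207 autosomal bins, 2712 met this rule (1.10%), and adjacent bins merged into 2184 regions that spanned 27.1 Mb. These are called E10.5-only bins. Members were thus chosen by the H3K27me3 peak lengths themselves, so the H3K27me3 values below describe the choice and were not tested. H3K9me3 was not used by the rule, and the tests are on that mark.

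Primordial germ cells are the embryonic precursors of eggs and sperm, and they were sorted from wild-type embryos of a C57BL/6 x GOF18delta_PE-EGFP background, in which a transgene with regulatory sequence of Pou5f1 (Oct4) drives EGFP in germ cells. At E10.5 the cells are pools from several embryos without a stated sex, so an E10.5 library is not the sample of 1 embryo. E13.5 cells were separated into female and male, and each mark has 3 libraries per group, 18 peak lists in all. The series asked how these marks behave during the loss of DNA methylation in germ cells. Separate animals are not stated for the replicates, so each p-value reflects spread among libraries that may be technical. The lists hold no expression, so the germ-cell identity was not checked.

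H3K27me3 is placed on histone H3 by Polycomb repressive complex 2 and is typical of silent developmental genes, often in broad domains over CpG-rich promoters. H3K9me3 marks constitutive heterochromatin, satellite repeats and transposable elements, and these marks usually occupy different parts of the genome. In germ cells of these stages DNA methylation is being erased, and both marks are studied as other forms of repression during that time. The positions are in mm9 and the annotation at hand is of GRCm38, so regions are given by position without gene names or sequence.

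The peak lists differ greatly in length, and this bears on every count below. Autosomal H3K27me3 peaks covered 19.5, 2.07 and 34.7 Mb in E10.5 replicates 1, 2 and 3, against 1.51 to 5.05 Mb in the female lists and 0.155 to 3.98 Mb in the male lists. Sequencing depth is unknown because the lists hold no read counts. E10.5 replicate 2 and E13.5 male replicate 2 stand apart as short lists, with 1703 and 359 peaks. Peak names show that the H3K27me3 list of E10.5 replicate 3 was called against an input named for H3K9me3, and that both marks of E13.5 replicates 1 and 2 share an input within each sex. The labels give the input of E10.5 replicate 3 without a mark, so both marks may share it. The H3K9me3 input of E10.5 replicate 2 is E10.5 in its title and E13.5 in its stage label, and the H3K9me3 list of that replicate, 42.7 Mb against 1.80 and 0.351 Mb in replicates 1 and 3, was called against an input.

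Membership rested on E10.5 replicates 1 and 3. Of the 2712 bins, 2572 were held by those lists alone, 12 by replicates 2 and 3 alone, 0 by replicates 1 and 2 alone, and 128 (4.72%) by all 3. Replicate 1 had a median of 2.18 kb of peaks per member bin and replicate 3 a median of 3.56 kb, whereas replicate 2 had any peak length in only 379 members, with a median of 0.750 kb where present. Peaks filled 26.1%, 1.45% and 39.5% of the member length in replicates 1, 2 and 3. The long lists overlapped in part: 78.5% of the replicate 1 length in members lay inside replicate 3 peaks, and 51.9% of the replicate 3 length lay inside replicate 1 peaks. In the bins retained at E13.5, defined next, the same shares were 91.8% and 75.04%. Some overlap follows from the rule, since most members needed both lists.

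E10.5-only bins made up 56.7% of the 4783 bins held by 2 or more E10.5 lists. A further 851 bins were held by exactly 1 E13.5 list, and 1220 bins (25.5%), called retained, were held by 2 or more of the 6. Only 11 bins were held by all 6 E13.5 lists. The opposite arrangement was rare in the lists as deposited, with 32 bins held by 2 or more lists of either sex at E13.5 and by no E10.5 list. This balance moved with list length: when the peaks of E10.5 replicates 1 and 3 were cut to the top-scoring 5.04 and 5.03 Mb, to match the longest E13.5 list, 159 of 727 held bins (21.9%) met the rule and the opposite count rose to 479. Trimming can only remove members, so the 159 are part of the 2712 by construction. Stage and list length cannot be told apart in these counts.

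**Figure D1:**
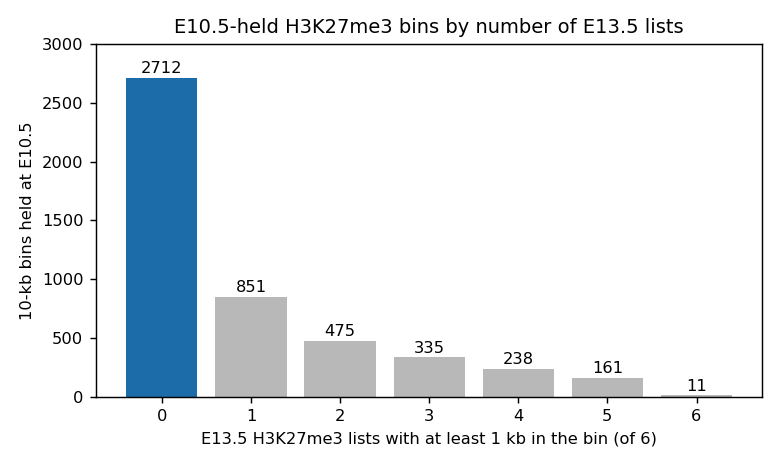
Bars give the number of 10-kb bins held by 2 or more E10.5 H3K27me3 lists (vertical axis) by how many of the 6 E13.5 lists also had at least 1 kb of peaks there (horizontal axis). The blue bar is the 2712 E10.5-only bins, and the grey bars fall from 851 bins in 1 list to 11 bins in all 6.

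The name E10.5-only holds at the 1-kb threshold and not below it. Some E13.5 peak length was present in 1618 members (59.7%), and 1094 members had none in any E13.5 list. Of the 1618, 786 had peak length in female lists alone, 276 in male lists alone and 556 in both sexes. Female replicates 1, 2 and 3 had peak length in 253, 917 and 757 members, and male replicates 1, 2 and 3 in 397, 9 and 613. The order of these counts was the order of the list lengths, from 5.05 Mb in female replicate 2 to 0.155 Mb in male replicate 2, and the part of list length in it cannot be told apart. No member had peak length in all 6 lists, and 16 had it in 5.

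What remained at E13.5 was short and lay where the E10.5 peaks had been. The median width of E13.5 peaks in member bins was 356, 381 and 392.5 bp in female replicates 1, 2 and 3 and 432, 413 and 447.5 bp in male replicates 1, 2 and 3. In retained bins the same lists had medians of 598, 697 and 645 bp and of 731, 529 and 756.5 bp, so every list had narrower peaks in the members. The rule itself caps the length in members. Of the E13.5 peak length in members, 79.6 to 90.5% fell inside E10.5 replicate 3 peaks, which filled 39.5% of the member length.

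At the threshold the members are close to their neighbours. The bins nearest inside by E10.5 length had 1001 bp in the second-highest E10.5 list (chr2:167740001-167750000 and chr6:88880001-88890000), and those nearest outside had 999 bp (chr2:76640001-76650000 and chr3:131750001-131760000). By E13.5 length, chr4:148960001-148970000 was inside with 999 bp in its highest E13.5 list, and chr1:133870001-133880000 was outside with 1000 bp. Within 200 bp of the thresholds lay 351 members on the E10.5 side and 289 on the E13.5 side. Moving the minimum to 0.5 or 2 kb gave 2754 and 2249 bins, of which 1769 and 1398 were among the 2712. Peaks with a score of at least 20 gave 2877 bins, of which 1940 were among the 2712. Peaks at or above the median score of each list gave 2064 bins, of which 1572 were. Bins of 5 kb with a minimum of 0.5 kb gave 3973 bins, or 19.9 Mb, against 27.1 Mb in the main set. Bins of 20 kb with a minimum of 2 kb gave 1828 bins, or 36.6 Mb.

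Most regions were small. Of the 2184 regions, 1770 (81.0%) were a single bin, 332 were 20 kb, 67 were 30 kb, and 15 were 40 kb or longer. The longest, chr19:7150001-7250000, spanned 100 kb. It held 34.3, 0.272 and 64.9 kb of H3K27me3 peaks in E10.5 replicates 1, 2 and 3, a mean of 33.1 ± 32.3 kb (SD, n = 3), and 0, 1.90 and 0.569 kb in the female and 0, 0 and 1.98 kb in the male replicates. Replicates 1 and 3 were high there, while replicate 2 lay inside the E13.5 range.

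The second longest, chr9:57910001-57990000, held 20.1, 0 and 46.8 kb in the E10.5 replicates, 0 kb in all female and in 2 male lists, and 0.583 kb in male replicate 3. An 80-kb stretch was thus nearly free of E13.5 peaks, and also of peaks in E10.5 replicate 2. Next came chr2:165020001-165080000, with 37.7, 2.28 and 43.4 kb at E10.5, at most 0.934 kb in a female list and 0 kb in the male lists. In this region all 3 E10.5 lists exceeded every E13.5 list. The region chr6:34820001-34880000 held 17.99, 0 and 27.6 kb at E10.5 and at most 0.371 kb at E13.5, and its nearest retained bin was 3300 kb away.

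The other 6 of the 10 longest ranged from 40 to 50 kb. They were chr11:77710001-77760000, chr6:72690001-72740000, chr13:56300001-56350000, chr7:86690001-86730000, chr3:88290001-88330000 and chr13:55030001-55070000. Their mean E10.5 peak length ran from 10.3 ± 9.44 kb (chr13:56300001-56350000) to 25.9 ± 22.3 kb (chr11:77710001-77760000; SD, n = 3 each), and their highest E13.5 value from 0.345 to 2.16 kb. E10.5 replicate 2 had no peak in 4 of the 10 regions, and in 6 of the 10 the highest E13.5 list exceeded it. Among these 10 regions, replicates 1 and 3 exceeded every E13.5 list in all 10.

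**Figure D2:**
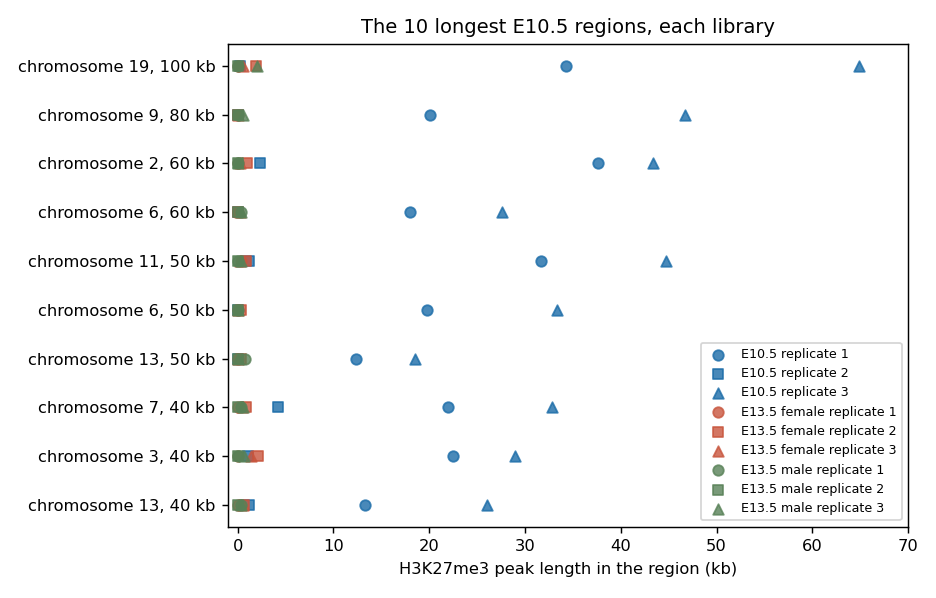
Each row is 1 of the 10 longest E10.5-only regions, named by chromosome and width, and each point is the H3K27me3 peak length in kb (horizontal axis) in 1 library, coloured by group and shaped by replicate. E10.5 replicates 1 and 3 lie between 12.3 and 64.9 kb, whereas E10.5 replicate 2 (blue squares) lies at 4.16 kb or less, beside the E13.5 libraries.

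E10.5 peaks in the members were narrower than those in retained bins. Median widths in member bins were 1246, 749 and 1263.5 bp in replicates 1, 2 and 3, a mean of 1086 ± 292 bp, against 2386.5, 1160.5 and 2625 bp in retained bins, a mean of 2057 ± 786 bp (SD, n = 3 each). The order was the same in each of the 3 lists, and bins held by exactly 1 E13.5 list fell between, at 1427, 758 and 1574 bp. Over all autosomal peaks the medians were 933, 853.5 and 738 bp, so members of replicates 1 and 3 were wider than the list as a whole and those of replicate 2 were not. The rule asked for at least 1 kb of peaks in a bin, and most members met it through replicates 1 and 3. The comparison with the whole list is therefore tied to the rule. Retained bins defined more strictly, as 2 or more of 3 lists in each group, had medians of 3930, 1246.5 and 3999 bp.

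Broad peaks, those of 5 kb or more, were a small part of the members. They made up 3.49%, 0.260% and 7.24% of member peaks in replicates 1, 2 and 3, against 25.1%, 3.72% and 31.9% of the peaks in retained bins. By length they held 14.5%, 1.71% and 27.9% in members and 64.5%, 14.6% and 74.5% in retained bins. The widest peak assigned to a member bin was 22276 bp (replicate 3) and the widest in a retained bin 43733 bp (replicate 1). The authors' score in column 9 of the deposited lists had medians of 21.4, 24.7 and 21.3 in members and 23.4, 25.7 and 24.7 in retained bins for replicates 1, 2 and 3. Scores rank peaks within a list only, and their scale is not known.

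**Figure D3:**
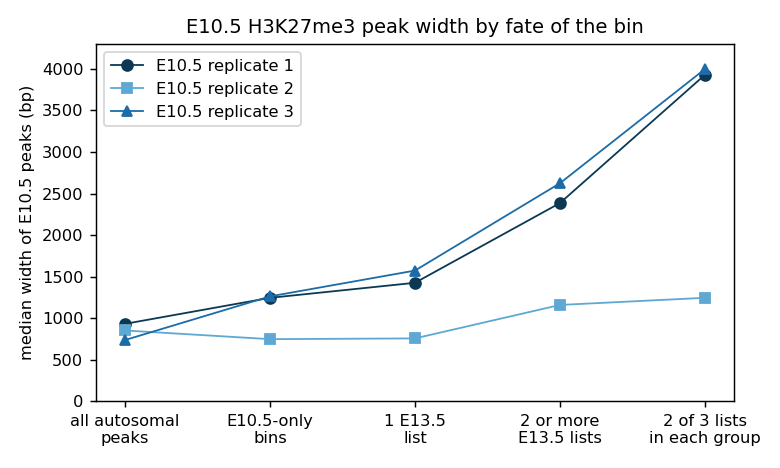
Points give the median width in bp of E10.5 H3K27me3 peaks (vertical axis) in all autosomal peaks, in E10.5-only bins, in bins held by 1 E13.5 list, in retained bins and in strictly retained bins (horizontal axis), with 1 line per E10.5 replicate. Replicates 1 and 3 rise from 1246 and 1263.5 bp in E10.5-only bins to 3930 and 3999 bp in strictly retained bins, and replicate 2 from 749 to 1246.5 bp.

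Most members lay in domains made up of members alone, while some shared a domain with retained bins. Adjacent bins held at E10.5 formed 2780 domains. In 1605 of them every bin was a member, and these domains held 1991 members (73.4%). In 299 domains, of median width 30 kb, members sat with retained bins, and these held 464 members (17.1%). The remaining 257 members (9.48%) shared a domain with bins of exactly 1 E13.5 list and with no retained bin. Single peaks of E10.5 replicate 3 that ran through both a member and a retained bin numbered 253, and 217 did so in replicate 1.

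Domain size went with fate. Of 1767 single-bin domains, 73.0% were entirely members and 10.9% were retained. Of 592 domains of 2 bins, 44.8% were entirely members and 32.8% included a retained bin. Among 203 domains of 4 bins or more, 3.45% were entirely members and 84.2% included a retained bin. A larger domain has more bins that could be retained, so part of this order follows from the count of bins. Of the 10 longest member regions, 2 touched a retained bin, on chromosomes 11 and 13.

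The 5 longest regions that touched a retained bin included both of these. The others were chr4:88930001-88960000, chr6:114200001-114230000 and chr2:153430001-153460000, each of 30 kb. The chromosome 4 region had 14.9, 7.58 and 22.5 kb of peaks in E10.5 replicates 1, 2 and 3 and 0.959 kb in female replicate 3, with 0 kb in the other 5 E13.5 lists. It was the only one of the 5 where E10.5 replicate 2 exceeded 1.21 kb.

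Members lay nearer to retained bins than bins not held at E10.5 did, and farther than bins held by exactly 1 E13.5 list. The median gap from a merged region to the nearest retained bin was 460 kb (quartiles 50 and 1720 kb), and 320 regions (14.7%) touched one. For single bins, 24.3% of members and 2.67% of the 242424 bins not held at E10.5 lay within 50 kb of a retained bin, with medians of 440 and 1830 kb. Bins of exactly 1 E13.5 list were nearer still, with a median of 110 kb, 44.4% within 50 kb and 30.6% touching a retained bin, against 11.9% of members. Beyond 1 Mb lay 35.1% of members and 66.8% of the bins not held at E10.5. With strictly retained bins the median gap of the regions was 2600 kb.

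Remnant E13.5 peaks and closeness to retained bins went together. Members with some E13.5 peak length had a median gap of 370 kb and 15.7% touched a retained bin, against 610 kb and 6.40% for the 1094 members with none. Both measures come from the H3K27me3 lists that the rule used. The 5 farthest members were single bins at chr16:67610001-67620000, chr5:9720001-9730000, chr10:7580001-7590000, chr16:49800001-49810000 and chr14:98420001-98430000, with gaps of 23600, 18750, 14280, 14250 and 13570 kb. All of them had 0 kb in every H3K9me3 list, and only the first had any E13.5 H3K27me3, 0.664 kb in female replicate 3.

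**Figure D4:**
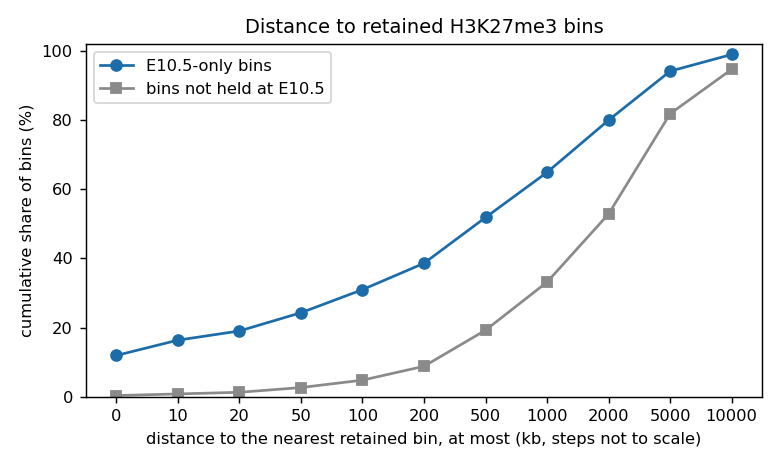
Lines give the cumulative share of bins in percent (vertical axis) within a given distance in kb of the nearest retained bin (horizontal axis, steps not to scale), for the 2712 E10.5-only bins and for bins not held at E10.5. Within 50 kb lie 24.3% of the E10.5-only bins and 2.67% of the others.

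The members were uneven across chromosomes. Relative to its share of bins, chromosome 11 held 1.85 times as many members (247 bins), chromosome 19 held 1.41 times (95) and chromosome 2 held 1.38 times (276). Chromosomes 10, 3 and 14 were the lowest, at 0.575, 0.594 and 0.648 times (82, 104 and 89 bins). Across the 19 autosomes this ratio rose with protein-coding genes per Mb in the RefSeq table of GRCm38.p6 (Pearson r = 0.756, Spearman rho = 0.737), and the ratio of retained bins did too (r = 0.581, rho = 0.675). Chromosomes share libraries, and differences in base composition among them were not examined, so these are descriptions. Of the bins held at E10.5, the share that were members ran from 46.7% on chromosome 5 to 73.4% on chromosome 16, where 11 bins were retained.

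Along chromosomes the members leaned away from the centromere-proximal end. With each chromosome divided into 10 equal parts, the first part held 3.69% of members and 3.36% of retained bins, and the last part 16.7% and 16.1%. The parts were counted from position 0, and any bins where no peak could be called were not left out, so these shares include such bins. Members occurred in 1044 of 2482 windows of 1 Mb (42.1%), and the 100 densest windows held 30.7% of them. The densest, with 17 members each, were chr2:164000001-165000000, chr5:112000001-113000000 and chr5:120000001-121000000, which had 3, 3 and 17 retained bins. By contrast chr2:151000001-152000000 held 14 members and 0 retained bins. Neighbouring member regions were a median of 330 kb apart.

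H3K9me3 was scarce in the members in every library. No H3K9me3 list had any peak length in 2606 of the 2712 bins (96.1%), against 82.6% of all autosomal bins. In E10.5 replicates 1, 2 and 3 it covered 0.00224%, 0.176% and 0.000656% of the member length, in female replicates 0.0140%, 0.0450% and 0.00796%, and in male replicates 0.265%, 0.119% and 0.130%. The H3K9me3 lists run from 0.351 to 74.0 Mb on the autosomes, so each was also divided by its own length. Observed over expected, which is 1 where peaks fall evenly over the autosomes, was 0.0308, 0.102 and 0.0462 at E10.5, 0.0714, 0.114 and 0.0599 in female and 0.0885, 0.0678 and 0.136 in male replicates. All 9 values lay below 0.14, although at E10.5 replicates 1 and 3 only 2 member bins had any H3K9me3.

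The scarcity extended around the members and faded with distance. Observed over expected ranged from 0.292 to 0.562 in other bins within 50 kb, from 0.395 to 0.824 over 50 to 100 kb, from 0.674 to 1.14 over 100 to 500 kb, from 0.916 to 1.14 over 500 kb to 1 Mb, and from 1.18 to 1.47 beyond 1 Mb. It was lower in members than within 50 kb in 9 of 9 libraries, and each further step outward rose in 9 of 9, except from 100 to 500 kb to 500 kb to 1 Mb, where it rose in 8 of 9 (the exception was E10.5 replicate 3, the shortest list). Members with and without E13.5 H3K27me3 remnants were alike low, with medians over libraries of 0.0943 and 0.0799.

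**Figure D5:**
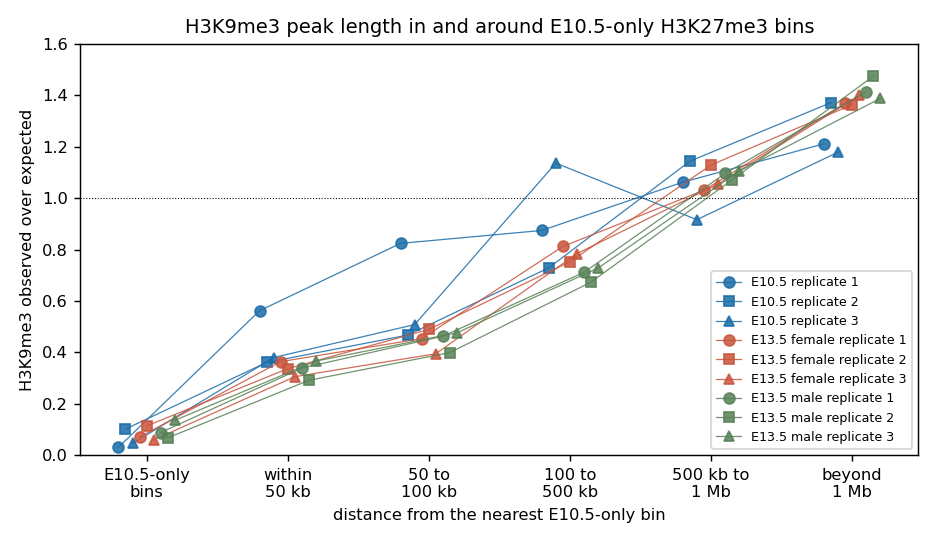
Points give H3K9me3 observed over expected (vertical axis, 1 at the dotted line) in the E10.5-only bins and in other bins by distance from them (horizontal axis), with 1 line per library coloured by group. All 9 libraries start between 0.0308 and 0.136 and end between 1.18 and 1.47 beyond 1 Mb.

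No stage or sex difference in H3K9me3 at the members passed its test. As a share of member length, male libraries had 0.171 ± 0.0813% and female libraries 0.0223 ± 0.0199% (SD, n = 3 each), and every male library exceeded every female one. A two-sided exact permutation test gave p = 0.1, and no lower p is possible with 3 libraries a side (0.4 adjusted over 4 contrasts). Every male list is also longer than every female list, so sex and list length cannot be told apart in this share. The share was 0.0967 ± 0.0972% at E13.5 (SD, n = 6) and 0.0596 ± 0.101% at E10.5 (SD, n = 3; exact permutation p = 0.595, 0.794 adjusted). Divided by list length, the values were 0.0974 ± 0.0350 in male and 0.0817 ± 0.0285 in female libraries (exact permutation p = 0.6, 0.6 adjusted), with overlapping ranges. E13.5 libraries had 0.0896 ± 0.0298 (SD, n = 6) and E10.5 libraries 0.0596 ± 0.0374 (SD, n = 3), with an exact permutation p of 0.226 (0.6 adjusted). Female and male against E10.5 gave exact permutation p of 0.5 and 0.3.

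Against the retained bins, H3K9me3 was lower in the members by covered length, and most of the retained length lay in 8 bins. Members had 0.284 ± 0.0753 percentage points less of their length in H3K9me3 peaks than retained bins (SD over n = 9 libraries, lower in 9 of 9, exact sign-flip permutation p = 0.00391, the smallest that 9 libraries can give). Of the H3K9me3 length in retained bins, 90% lay in 8 bins, 4 of them adjacent from chr9:3000001-3010000 to chr9:3030001-3040000, and the others included chr17:39980001-39990000 and chr2:98500001-98510000. By the rule such bins could not be members: chr9:3000001-3010000 was held by 6 E13.5 H3K27me3 lists and had H3K9me3 in 9 lists. All libraries were read over the same bins. The sign-flip p thus reflects how steadily those bins recur among libraries, and it does not measure spread among bins. Those 8 bins were picked for their H3K9me3 and left out of the retained side alone, which lowers that side by construction. Members then had 0.0505 ± 0.0551 points more than the remaining retained bins (SD, n = 9, higher in 9 of 9). This is given as a description with no test. By the share of bins with any H3K9me3 peak, members were 0.150 ± 0.426 points lower (SD, n = 9, lower in 5 of 9, exact sign-flip permutation p = 0.320). Both comparisons were added after the data were seen. Observed over expected ranged from 0.166 to 8.30 over the 9 libraries in all retained bins (median 0.804). In retained bins without those 8 it ranged from 0 to 0.0590 (median 0.0282). In bins of exactly 1 E13.5 list it ranged from 0 to 0.219 (median 0.0501), beside 0.0308 to 0.136 (median 0.0714) in members.

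Few members did carry H3K9me3. Length in 3 or more of the 9 lists was found in 33 members (1.22%), against 1.15% of retained bins and 9.26% of all autosomal bins. At least 1 kb in 2 or more male lists was found in 11 members (0.406%), against 5.65% of all autosomal bins. No member had it in 2 or more female or 2 or more E10.5 lists, where 0.341% and 0.225% of all autosomal bins did. The region with most, chr9:121130001-121150000, had 6.18, 4.19 and 5.39 kb of H3K9me3 in male replicates 1, 2 and 3, 0.190, 1.34 and 0.648 kb in female replicates and 0, 0.413 and 0 kb at E10.5. All male values there exceeded all others. It had 8.003, 0.261 and 14.1 kb of H3K27me3 at E10.5 and at most 0.468 kb at E13.5.

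The next 4 were single bins in which E10.5 replicate 2, the longest E10.5 H3K9me3 list and the one whose input has conflicting stage labels, had peaks as well. At chr10:62560001-62570000 it had 4.597 kb, against 3.80, 2.18 and 3.64 kb in male replicates 1, 2 and 3. At chr6:65330001-65340000 it had 4.83 kb and the female lists 0 kb. At chr8:22970001-22980000 and chr17:32230001-32240000 it had 3.05 and 2.79 kb. In these 4 bins E10.5 replicates 1 and 3 had 0 kb.

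Over all 22896 autosomal bins with H3K9me3 in 3 or more libraries, limma on log2(kb + 1) called 1387 higher in male than in female cells and 0 lower at a Benjamini-Hochberg adjusted p of 0.05, so 6.06% were called higher and 0% lower. Among the 33 members tested 2 were called higher (6.06%), a share near the background. Both had peaks in all 3 male lists and in 1 other list, so they met the minimum of 3 libraries through the male group. With bins kept at 1 or more libraries, 3 of 106 members were called higher (2.83%), beside 3.93% of 43072 bins. The 2 members were chr9:121130001-121140000, with 3.10, 2.29 and 2.73 kb in male and 0 kb in all female libraries (log2 change 1.88 ± 0.25 SE, limma adjusted p = 0.0365), and chr10:79820001-79830000, with 1.62, 2.40 and 1.23 kb in male and 0, 0.217 and 0 kb in female libraries (1.34 ± 0.25 SE, limma adjusted p = 0.0393). Over the 33 members the median change was 0.63, against 0.95 over all tested bins. On values divided by list length, log2(ppm + 100), limma called 0 bins, and 0 members were called in 7 of the 9 fits that left out 1 library. Without E10.5 replicate 2, 11 of 29 members were called, beside 10843 of 19858 bins. Without E13.5 male replicate 3, 4 of 29 members were called, beside 5803 of 19787 bins.

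For E13.5 against E10.5, limma called 0 bins at an adjusted p of 0.05, 0% in either direction, and 0 of the 33 members. At an unadjusted p under 0.05 there were 1656 of 22896 bins in all and 3 of the 33 members. Without E10.5 replicate 2, 831 of 19858 bins and 1 of 29 members were called, all higher at E13.5.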

How the data were processed

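Native (MNase) ChIP-seq of H3K27me3 and H3K9me3 in sorted primordial germ cells was analysed from 18 broad peak lists, 1 per library; 13 input libraries were not used here. Peaks were called per library against an input, per the peak names in the deposited files. The build was mm9, and MACS2 2.1.0, BWA 0.7.5a, deepTools 3.3.0, SAMtools, CASAVA 1.8.4 and Picard were used, per the submitters' processing notes, which give no roles. Peak thresholds: not given in the sources used here. Scores in the deposited files are the authors' own, and the score in column 9 was used only to filter or trim lists.

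Overlapping peaks were merged, and peak length per 10-kb bin was computed with Python 3.11.15 and numpy 2.4.6. A peak was assigned to the bin that held most of it. Chromosome lengths were the last peak ends. Group differences in H3K9me3 were tested by exact permutation over libraries, and per bin by limma 3.58.1 in 1 fit of 9 libraries. The limma script was tested on simulated data. Named regions follow fixed rules (longest, nearest the thresholds, most H3K9me3, farthest from or longest beside retained bins, limma calls). Members, lists and tests were chosen with earlier results of these data known.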

Additional observations from a re-analysis of the deposited data

Results flagged for a closer look

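The H3K27me3 list of E13.5 male replicate 2 had 2.50% of its length in the E10.5-only bins, against 7.28 to 8.69% in the other 5 E13.5 lists. It was the lowest value by a wide gap in this group of 6. The threshold for naming such a gap is passed by chance in about 1 of 20 groups, and 4 sets of values were examined. This list has 359 peaks, and 9 member bins had any peak length in it.

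On chromosome X, which the rule for the members leaves out, 52 of 16666 bins met the same H3K27me3 rule. That is 0.312% of the X bins, against 1.10% of the autosomal bins.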

How the results depend on the processing

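The number of E10.5-only bins was within 1.5 times of 2712 for both other minimum lengths, all 3 other bin grids and both score filters, but the bins differed. It was 128 when all 3 E10.5 lists had to hold a bin, 1094 when no E13.5 list could have any peak length, and 159 with the E10.5 lists trimmed to the longest E13.5 list, the last 2 being chosen after the data were seen. Leaving out 1 library gave 128 (without E10.5 replicate 3) to 3073 bins, with 140 without E10.5 replicate 1, and leaving out both short lists gave 2700. With strictly retained bins, the median E10.5 peak width was 1972 bp above that of members, in place of 971 bp, and the median distance was 2600 kb.

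Each contrast of H3K9me3 in the members changed direction under at least 1 other setting. For the share of member length in percent, a score of at least 20 turned E13.5 minus E10.5 to -0.0293 and male minus E10.5 to -0.0244. Male minus female stayed positive with the 2-kb minimum, the score minimum and each library left out. Members held by all 3 E10.5 lists turned male minus female to -0.00109 and female minus E10.5 to 0.0146. In those 128 members, H3K9me3 was 0.590 kb in E13.5 female replicate 2, 0.548 kb in male replicate 1 and 0.03 kb in E10.5 replicate 3. The other lists had 0 kb. For observed over expected, E13.5, female and male minus E10.5 were -0.0331, -0.0160 and -0.0502 in those members. These 3 rest on the 0.03 kb, the only E10.5 length there. Male minus female was -0.0342 there. With the score minimum the 3 were -0.00983, -0.0150 and -0.00466. The cause was not tested.

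With 1 library left out, the share differed by 0.00349 to 0.0952 (E13.5 minus E10.5), 0.102 to 0.175 (male minus female), -0.0667 to 0.0208 (female minus E10.5; the last without E10.5 replicate 2) and 0.0646 to 0.170 (male minus E10.5). Observed over expected differed by 0.0156 to 0.0511, -0.00358 to 0.0318 (the first without E13.5 male replicate 3), 0.00602 to 0.0433 and 0.0186 to 0.0590 in the same order.

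Members minus retained bins stayed between -0.305 and -0.274 points with 1 library left out. It was -0.150 by the share of bins with a peak and 0.0505 without the 8 bins, which were picked for their H3K9me3 and left out of 1 side alone, so no direction is read from it. Male against female cells, limma called 4346 of 22896 bins and 6 of 33 members with log2(kb + 0.1), and 0 and 0 with log2(ppm + 100). With 1 library left out it called 0 to 10843 bins and 0 to 11 members. E13.5 against E10.5, leaving out 1 library gave 0 to 831 bins and 0 to 1 members. The highest counts of both comparisons came without E10.5 replicate 2, where 19858 bins and 29 members were tested.

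With the replicate number as a block, limma called 0 bins and 0 members for both comparisons. Every group has the same replicate numbers, so the block could not change the size or direction of the 8 permutation contrasts. Deviations of same-numbered libraries correlated at -0.144 to 0.270, over 0.1 in 4 of 9 pairs. Libraries of different numbers correlated at -0.260 to 0.163. Not every library correlated best with its own number, and no label names a shared animal or batch. Whether same-numbered libraries share a batch is thus not known. Depth is unknown, and absence of a peak does not show absence of the mark in lists of 359 to 1703 peaks.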
